A study of Homo sapiens with 9 samples.

Results

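MGMT, MPG, MSH3, MSH6, PMS1 and PMS2 repair damaged or mispaired bases in DNA, and their transcripts were followed in docetaxel-resistant, paclitaxel-resistant and sensitive MDA-MB-231 cells. All probe sets annotated to these genes were taken, which gave 10 of the 22215 human probe sets on the arrays and 6 of the 11963 genes measured. The genes were chosen on their differences between the groups in earlier results from the same arrays. Their values below are thus a description, and calls counted among them are not read as tests. Estimates with intervals are given for them, and tests are printed for other genes. The lists of those other genes were also set with earlier results of these data known.

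MDA-MB-231 is an established human breast cancer line that grows attached to the flask. One group was a docetaxel-resistant line kept in 2 nM docetaxel, another a paclitaxel-resistant line kept in 7 nM paclitaxel, and the last the sensitive cells, which had neither drug. All groups had verapamil at 1 µM in the medium, a compound that blocks calcium channels and the efflux pump P-glycoprotein. Each group had 3 arrays (Affymetrix HU133A), each from a separate passage. Each resistance was 1 line, so the spread is that between passages, and the drug in the medium and the selected line cannot be told apart. Docetaxel and paclitaxel are taxanes, which bind and stabilize microtubules, and they differ in the acyl group on the side-chain nitrogen and in a free hydroxyl in place of an acetate on the ring system.

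MGMT takes alkyl groups off the oxygen of guanine and onto a cysteine of its own, which inactivates the protein, so the capacity of a cell depends on how much of it is made. MPG is a DNA glycosylase that cuts out alkylated bases such as methyladenine and opens base excision repair. In mismatch repair, MutS proteins (MSH3 and MSH6 among them) recognize mispaired bases and small loops, and MutL proteins (PMS1 and PMS2 among them) pass the signal on to excision. The pathways meet in the cell's answer to alkylating drugs: an alkylated guanine that MGMT has not repaired mispairs during replication, and mismatch repair acts on that pair. Loss of MGMT RNA with methylation of the CpG sites in its promoter is well known in tumours.

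The deposited values are linear probe set intensities, and the array medians ran from 33.66 to 43.89. Between 24.02% and 26.97% of the probe sets of an array read below 16, and no detection calls were used, so a low intensity here has no stated limit below which a transcript is absent. The 3' minus 5' log2 difference of the GAPDH control, a sign of RNA integrity, was 0.0067 to 0.13 in docetaxel-resistant, 0.094 to 0.20 in paclitaxel-resistant and 0.014 to 0.039 in sensitive arrays. That of the ACTB control was -0.15 to -0.11 in docetaxel-resistant, -0.13 to 0.17 in paclitaxel-resistant and -0.26 to -0.017 in sensitive arrays. These ACTB ranges overlapped. The part of RNA integrity in the results was not tested. Of the 5 markers that MDA-MB-231 expresses highly, VIM, the intermediate filament vimentin, averaged 4682, 5223 and 8335 in docetaxel-resistant, paclitaxel-resistant and sensitive cells, and it makes up most of their sum. Called here means a Benjamini-Hochberg adjusted p below 0.05 in limma over all genes or, for probe sets, over all probe sets. VIM was called lower in both lines, CD44 (-0.54) in the docetaxel-resistant line and MSN (-0.73) in the paclitaxel-resistant line. CAV1 (0.01 and 0.01) and AXL (-0.25 and 0.24 in the docetaxel- and paclitaxel-resistant lines) were not called. The summed intensity of all 5 was 8130 to 8792 in docetaxel-resistant, 8620 to 9392 in paclitaxel-resistant and 11230 to 14390 in sensitive arrays. The 5 markers that MDA-MB-231 expresses weakly (ESR1, PGR, ERBB3, CDH1 and EPCAM) summed to 199.4 to 223.2, 223.2 to 237.1 and 196.4 to 270.5 in those groups. Of 8 luminal breast markers FOXA1 and AGR2 were called higher in both lines, and TFF1 in the paclitaxel-resistant line. ESR1, PGR, GATA3, KRT8 and KRT18 were called in neither. They had -0.21 to 0.04 in the docetaxel-resistant and -0.10 to 0.11 in the paclitaxel-resistant line. The median of all 8 was -0.002 and 0.10 in the docetaxel- and paclitaxel-resistant lines. Over all genes 21.0% and 21.6% were called in those lines, 10.8% higher in each. The summed intensity of 10 proliferation genes was 7371 to 9940 in docetaxel-resistant, 7590 to 8637 in paclitaxel-resistant and 5818 to 8743 in sensitive arrays. These ranges overlapped. Of those 10 genes 1 was called higher in each line, TYMS in the docetaxel-resistant line (0.61 on the log2 scale) and TOP2A in the paclitaxel-resistant line (1.54). TOP2A had 1.30 in the docetaxel-resistant and TYMS 0.41 in the paclitaxel-resistant line. Those differences were not called, though the arrays did not overlap the sensitive ones. Between the resistant lines neither gene was called. Blood cell markers had no called gene among 6 in either comparison with sensitive cells by limma, with 0 at an unadjusted p below 0.05 for the docetaxel-resistant line and 0 for the paclitaxel-resistant line. Of 7 fibroblast markers PDGFRB alone was called higher in each line, and their summed intensity was 284.6 to 334 in docetaxel-resistant, 267 to 366.4 in paclitaxel-resistant and 244.5 to 263 in sensitive arrays. PDGFRB by itself averaged 101.1 in docetaxel-resistant, 98.79 in paclitaxel-resistant and 36.39 in sensitive cells. The median difference of the 7 was -0.13 in the docetaxel-resistant and -0.14 in the paclitaxel-resistant line, so the sums do not show a rise of the list. Levels within these lists ran wide: the fibroblast marker LUM read at most 4 in all arrays and COL1A1 74.68 to 126.4, and the blood markers PTPRC and HBB read 3.70 to 11.64 and 315.3 to 481.7. The part of these markers in the results was not tested.

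MGMT showed the widest gap of the 6 genes. Its only probe set, 204880_at, read 13.66, 10.59 and 13.46 in docetaxel-resistant cells. It read 13.04, 11.40 and 11.84 in paclitaxel-resistant cells, against 2542, 2961 and 2756 in sensitive cells. All 6 resistant arrays read below 16, where the dimmest probe sets of each array lie, and far from the sensitive arrays. The means were 12.57 ± 1.72 in docetaxel-resistant, 12.09 ± 0.849 in paclitaxel-resistant and 2753 ± 209 in sensitive cells (SD, n = 3 each). The ratio of the means, higher over lower, was 219 for the docetaxel-resistant line and 228 for the paclitaxel-resistant line. On the scale used for all comparisons, quantile-normalized log2(intensity + 16), the difference from sensitive cells was -6.60 ± 0.14 (SE; 95% interval -6.91 to -6.28) in the docetaxel-resistant line. In the paclitaxel-resistant line it was -6.59 ± 0.14 (95% interval -6.91 to -6.28). In each line this was the second largest fall among the 22215 probe sets. The offset of 16 shrinks a difference that ends at a low intensity: with an offset of 1 it was -7.69 and -7.68 in the docetaxel- and paclitaxel-resistant lines, and with 64 it was -5.19 and -5.18. RNA came from whole cultures, so fewer cells with MGMT RNA and less of it per cell cannot be told apart.

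**Figure D1:**
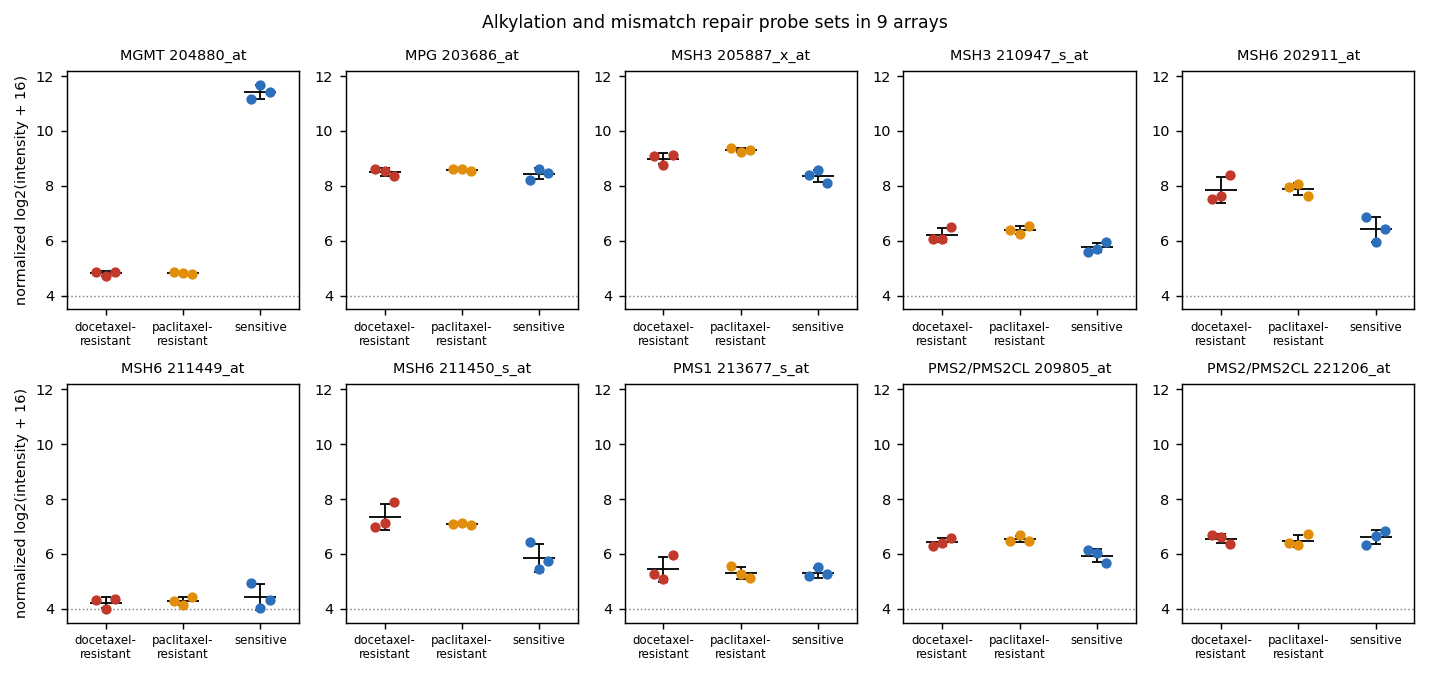
Normalized log2(intensity + 16) of the 10 probe sets in each array, with groups along the horizontal axis (docetaxel-resistant, paclitaxel-resistant, sensitive). Points are arrays in replicate order, the long line is the mean, the bars are 1 SD (n = 3) and the dotted line is an intensity of 0; MGMT lies near that line in all 6 resistant arrays and far above it in the 3 sensitive ones.

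The MGMT promoter is shown because its CpG sites are where methylation of this gene is usually read; methylation was not measured in these samples. The RefSeq window (GRCh38.p14, chr10:129466991-129467290, plus strand, 250 bases before to 50 after the transcript's start) holds 45 CpG sites, here in capitals. At least as many CpG sites stand in 3.39% of 27305 promoters of the same length, 1 per gene, whose median is 14.
MGMT promoter: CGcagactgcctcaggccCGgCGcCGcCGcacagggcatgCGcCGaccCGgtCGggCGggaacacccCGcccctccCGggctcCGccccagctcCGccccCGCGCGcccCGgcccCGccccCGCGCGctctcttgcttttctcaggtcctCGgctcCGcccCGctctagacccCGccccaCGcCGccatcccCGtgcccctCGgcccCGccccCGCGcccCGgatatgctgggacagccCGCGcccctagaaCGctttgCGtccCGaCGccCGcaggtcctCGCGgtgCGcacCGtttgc

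MPG, the glycosylase, had intervals that include 0 in both lines. Its probe set 203686_at read 359.0, 381.1 and 352.4 in docetaxel-resistant cells. It read 407.4, 346.5 and 339.4 in paclitaxel-resistant cells, against 303.9, 315.2 and 340.2 in sensitive cells. As deposited, the docetaxel-resistant arrays all lay above the sensitive ones and the paclitaxel-resistant arrays overlapped them. After normalization the difference was 0.06 (95% interval -0.25 to 0.37) in the docetaxel-resistant line and 0.15 (-0.16 to 0.46) in the paclitaxel-resistant line. The intervals leave room for a difference of 0.46 at most.

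MSH3 and MSH6 encode the MutS subunits that give the complexes their preference, MSH3 for larger loops and MSH6 for base mismatches and short loops. Both read higher in resistant cells. The main MSH3 probe set, 205887_x_at, read 504.1, 452.1 and 590.6 in docetaxel-resistant cells. It read 686.9, 558.4 and 593.9 in paclitaxel-resistant cells, against 343.6, 302.1 and 267.4 in sensitive cells. Every resistant array was above every sensitive one, while the resistant lines overlapped each other. The difference was 0.63 ± 0.15 (SE; 95% interval 0.29 to 0.97) in the docetaxel-resistant line and 0.95 ± 0.15 (0.61 to 1.28) in the paclitaxel-resistant line. Leaving out 1 array at a time gave 0.51 to 0.745 in the docetaxel-resistant and 0.82 to 1.05 in the paclitaxel-resistant line, lowest in both without sensitive replicate 3.

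The other MSH3 probe set, 210947_s_at, reads at a lower level and moved the same way. Both MSH3 probe sets have names ending in _x_at or _s_at, so both can share sequence with other transcripts. It read 50.40, 54.44 and 88.62 in docetaxel-resistant cells and 74.46, 56.34 and 74.64 in paclitaxel-resistant cells, against 30.45, 31.73 and 46.06 in sensitive cells. No resistant array fell inside the sensitive range. The difference was 0.45 (95% interval 0.10 to 0.81) in the docetaxel-resistant line and 0.64 (0.28 to 0.99) in the paclitaxel-resistant line. Without docetaxel-resistant replicate 3, the array that stood highest, the docetaxel difference was 0.30.

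MSH6 had the largest increase of the 6 genes. Probe set 202911_at read 164.4, 199.2 and 364.3 in docetaxel-resistant cells. It read 257.3, 230.5 and 173.6 in paclitaxel-resistant cells, against 98.11, 38.92 and 71.81 in sensitive cells. Every resistant array was above every sensitive array, with docetaxel-resistant replicate 3 the highest and sensitive replicate 2 the lowest. Those arrays also had the highest and the lowest array median, 43.89 and 33.66, before normalization. The ratio of means was 3.49 in the docetaxel-resistant and 3.17 in the paclitaxel-resistant line. The normalized difference was 1.44 ± 0.26 (SE; 95% interval 0.87 to 2.00) in the docetaxel-resistant line and 1.48 ± 0.26 (0.91 to 2.04) in the paclitaxel-resistant line. Leaving out docetaxel-resistant replicate 3 gave 1.16 for the docetaxel-resistant line. Leaving out sensitive replicate 2 gave 1.21 for the docetaxel-resistant line and 1.25 for the paclitaxel-resistant line.

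In a further MSH6 probe set, 211450_s_at, the resistant arrays again all lay above the sensitive ones. It read 108.4, 136.0 and 254.8 in docetaxel-resistant cells and 132.5, 113.0 and 111.4 in paclitaxel-resistant cells, against 66.01, 24.37 and 37.76 in sensitive cells. Its difference was 1.47 ± 0.26 in the docetaxel-resistant line and 1.22 ± 0.26 in the paclitaxel-resistant line. Leaving out 1 array at a time gave 1.18 to 1.74 in the docetaxel-resistant and 1.02 to 1.49 in the paclitaxel-resistant line. The remaining one, 211449_at, read between 0.02 and 13.94 in all arrays and so near the bottom of the scale that no order can be read from it.

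The MSH3 and MSH6 promoters are shown because both genes were higher in both lines. They were searched on both strands for the GC box (GGGCGG), the CCAAT box (CCAAT) and E2F-type letters (TTTCCCGC, TTTCGCGC, TTTGCCGC or TTTGGCGC). These motifs were chosen after the values were seen. The RefSeq windows (GRCh38.p14, plus strand) are chr5:80654402-80654701 for MSH3 and chr2:47782895-47783194 for MSH6 (the first of 4 listed), with the E2F-type letters in capitals. MSH3 holds overlapping matches at -107 and -103 from its start and MSH6 a match at 4. E2F-type letters stand in 3.33%, a GC box in 44.6% and a CCAAT box in 35.7% of the 27305 promoters.
MSH3 promoter: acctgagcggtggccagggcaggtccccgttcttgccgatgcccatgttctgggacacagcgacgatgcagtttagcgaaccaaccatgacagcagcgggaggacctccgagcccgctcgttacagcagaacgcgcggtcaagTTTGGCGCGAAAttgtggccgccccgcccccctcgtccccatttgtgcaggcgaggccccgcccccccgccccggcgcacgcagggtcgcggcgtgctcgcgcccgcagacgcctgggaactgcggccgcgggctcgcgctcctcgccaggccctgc
MSH6 promoter: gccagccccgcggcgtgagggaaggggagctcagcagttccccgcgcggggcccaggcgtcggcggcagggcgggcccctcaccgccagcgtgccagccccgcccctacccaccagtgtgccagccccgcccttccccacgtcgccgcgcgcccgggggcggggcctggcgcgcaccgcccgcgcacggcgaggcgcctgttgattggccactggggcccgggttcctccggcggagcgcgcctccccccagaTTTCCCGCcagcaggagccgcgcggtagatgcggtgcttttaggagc
MSH3 holds 4 GC boxes and MSH6 holds 5, beside 8 in MGMT, 3 in MPG, 2 in PMS2 and 1 in PMS1. CCAAT boxes number 3 in PMS2, 2 in PMS1, 1 each in MSH6 and MPG, and 0 in MSH3 and MGMT. PMS2, whose window lies on the minus strand, has 1 E2F-type match, and MGMT, MPG and PMS1 have none. A match of letters is a description of the window and no sign of a factor bound there.

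PMS1, a MutL protein whose part in repair is less clear than that of PMS2, was low in all groups. Its probe set 213677_s_at read 23.46, 18.18 and 53.18 in docetaxel-resistant cells and 32.47, 21.74 and 19.37 in paclitaxel-resistant cells, against 19.24, 26.72 and 22.25 in sensitive cells. The groups overlapped, with docetaxel-resistant replicate 3 alone standing high. The difference was 0.11 (95% interval -0.36 to 0.59) in the docetaxel-resistant line and -0.01 (-0.48 to 0.47) in the paclitaxel-resistant line.

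PMS2 is the MutL subunit whose endonuclease nicks the strand to be repaired. Both of its probe sets are annotated to PMS2 and to the pseudogene PMS2CL, so their transcripts cannot be told apart here. Probe set 209805_at read 62.67, 74.34 and 96.56 in docetaxel-resistant cells and 80.08, 80.10 and 71.63 in paclitaxel-resistant cells, against 50.63, 41.01 and 35.39 in sensitive cells. No resistant array overlapped the sensitive ones. The difference was 0.49 (95% interval 0.15 to 0.82) in the docetaxel-resistant line and 0.60 (0.27 to 0.94) in the paclitaxel-resistant line. Without sensitive replicate 3 these were 0.35 and 0.47, the lowest values with 1 array left out.

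The other PMS2/PMS2CL probe set gave no such gap. Probe set 221206_at read 85.05, 90.05 and 78.71 in docetaxel-resistant cells and 75.20, 59.56 and 86.77 in paclitaxel-resistant cells, against 61.11, 67.05 and 103.4 in sensitive cells. The groups overlapped, and the difference was -0.05 (95% interval -0.42 to 0.33) in the docetaxel-resistant line and -0.13 (-0.50 to 0.24) in the paclitaxel-resistant line. The PMS2/PMS2CL probe sets thus disagree, and no single value stands for the gene.

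Counted over the 10 probe sets, 4 were called higher and 1 lower in the docetaxel-resistant line. In the paclitaxel-resistant line 5 were called higher and 1, that of MGMT, lower. Over all probe sets 17.7% were called for the docetaxel-resistant line (9.34% higher) and 18.6% for the paclitaxel-resistant line (9.21% higher). In the docetaxel-resistant line the call of PMS2/PMS2CL 209805_at was lost under 11 of 16 alternative settings. That of MSH3 205887_x_at was lost under 3, while MSH3 210947_s_at gained a call under 1. In the paclitaxel-resistant line MSH3 210947_s_at and PMS2/PMS2CL 209805_at each lost theirs under 2 of 16. The same contrasts chose the genes, so nothing is read from these counts. The median log2 difference of the 10 was 0.28 in the docetaxel-resistant and 0.38 in the paclitaxel-resistant line, beside -0.05 and -0.03 over all probe sets. Both comparisons use the same 3 sensitive arrays, so their likeness is partly built in.

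**Figure D2:**
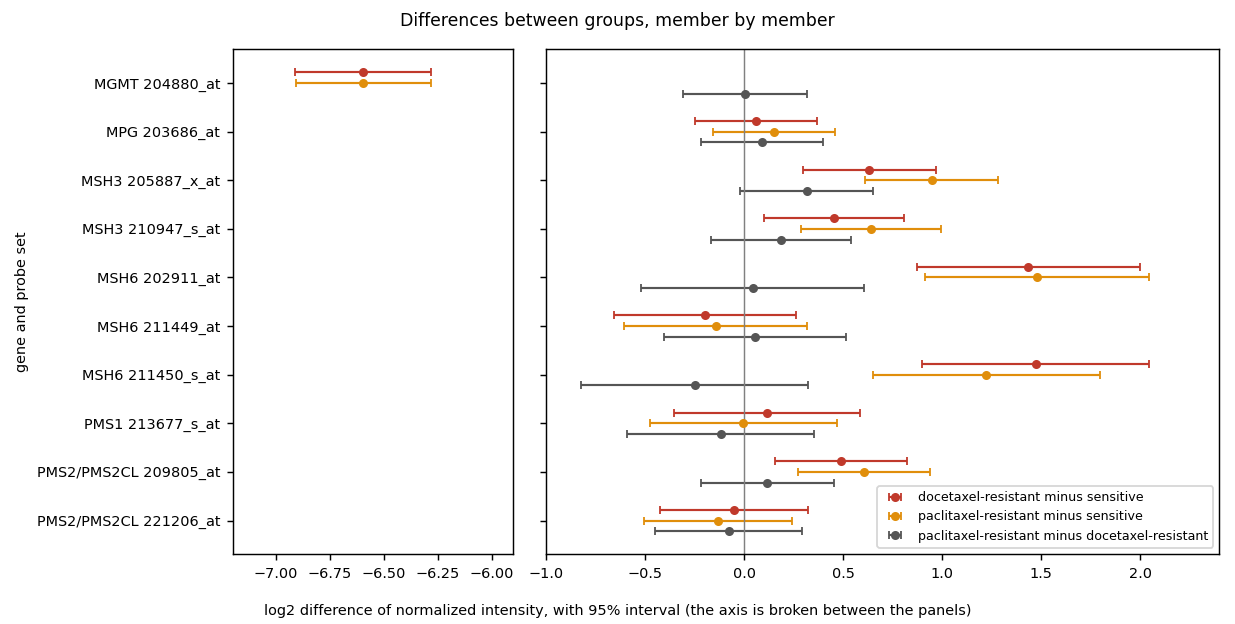
Log2 difference of normalized intensity with its 95% interval for each probe set, for each resistant line against sensitive cells and for the paclitaxel-resistant against the docetaxel-resistant line. The horizontal axis is broken between the panels: MGMT lies at -6.60 and -6.59 on the left, and on the right the differences between the resistant lines all have intervals that include 0.

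Set against each other, the paclitaxel- and docetaxel-resistant lines had 95% intervals that include 0 for all 10 probe sets. Over all probe sets 1.6% were called in this comparison. The doses differ (7 nM paclitaxel and 2 nM docetaxel) and each drug belongs to 1 line, so compound, dose and line cannot be told apart. The paclitaxel minus docetaxel difference was 0.00 for MGMT (95% interval -0.31 to 0.32) and 0.09 for MPG (-0.22 to 0.40). For MSH3 it was 0.31 (-0.02 to 0.65) by 205887_x_at. For MSH6 it was 0.04 (-0.52 to 0.61) by 202911_at and -0.25 (-0.82 to 0.32) by 211450_s_at. For PMS1 it was -0.12 (-0.59 to 0.35), and for PMS2/PMS2CL 0.12 (-0.22 to 0.45) by 209805_at. These intervals do not show that the lines are alike: for MSH6 they allow a difference of 0.82 on the log2 scale. As a description, sensitive cells stood highest for MGMT and lowest for MSH3 and MSH6. The resistant lines were not separated beyond their spread. For MPG and PMS1 no group was separated from another beyond the spread.

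Other genes of the same pathways were taken from 5 lists: alkylation repair, other mismatch recognition and meiotic MutS or MutL proteins, mismatch excision and resynthesis, other DNA glycosylases, and the steps after a glycosylase. Of 43 genes listed 35 were measured, with 1 probe set per gene. In the docetaxel-resistant line 5 were called higher and 5 lower, and in the paclitaxel-resistant line 4 were called higher and 6 lower. Over all genes 21.0% were called for the docetaxel-resistant line (10.8% higher) and 21.6% for the paclitaxel-resistant line (10.8% higher). The median difference over the 35 genes was 0.04 in the docetaxel-resistant and -0.00 in the paclitaxel-resistant line, beside -0.05 and -0.02 over all genes. Leaving out docetaxel-resistant replicate 3 brought the docetaxel count to 5, and leaving out docetaxel-resistant replicate 2 or sensitive replicate 3 brought it to 6. The paclitaxel count was 6 without paclitaxel-resistant replicate 1.

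Excision after mismatch recognition is the work of EXO1, a nuclease that both MutS and MutL proteins bind. EXO1 read 110.7, 134.5 and 192.0 in docetaxel-resistant cells and 133.2, 141.1 and 119.1 in paclitaxel-resistant cells, against 62.37, 56.78 and 25.07 in sensitive cells. All resistant arrays were above all sensitive ones. EXO1 rose by 1.15 in the docetaxel-resistant line (limma, adjusted p = 0.00801) and by 1.17 in the paclitaxel-resistant line (adjusted p = 0.0071). RFC1, the large subunit of the clamp loader, rose by 0.92 (limma, adjusted p = 0.00647) and 0.87 (adjusted p = 0.00825) in the docetaxel- and paclitaxel-resistant lines. With probe sets that can share sequence with other transcripts left out, RFC1 lost both calls and had -0.13 in the docetaxel-resistant line. PCNA, the sliding clamp, had 0.58 (limma, adjusted p = 0.0635) in the docetaxel-resistant and 0.61 (adjusted p = 0.0513) in the paclitaxel-resistant line and was not called. The rest of this list went apart between the genes. RPA3, a subunit of the single-strand binding protein, rose by 0.52 in the docetaxel-resistant line (limma, adjusted p = 0.0363), where RPA2, another subunit, fell by 0.42 (adjusted p = 0.0446). The RPA3 call was lost under 9 and the RPA2 call under 14 of 18 alternatives. In the paclitaxel-resistant line the clamp loader subunit RFC5 fell by 0.75 (limma, adjusted p = 0.0254) and DNA ligase LIG1 fell by 0.60 (adjusted p = 0.0291), calls lost under 6 and 7 of 18 alternatives. Of the 16 genes measured in this list, 3 were called higher and 1 lower in the docetaxel-resistant line. In the paclitaxel-resistant line 2 were called higher and 2 lower.

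Among the other MutS and MutL proteins 2 were measured. MLH3, a MutL protein, had -0.16 in the docetaxel-resistant and -0.10 in the paclitaxel-resistant line and was not called. MSH4, a meiotic MutS protein, read between 4.97 and 15.83 in all arrays and fell by 0.46 in the paclitaxel-resistant line (limma, adjusted p = 0.0209), a call lost under 4 of 17 alternatives. Of 2 other alkylation repair genes, ALKBH1, a dioxygenase of the AlkB family, fell by 0.49 in the docetaxel-resistant line (limma, adjusted p = 0.0183). That call was lost under 4 of 18 alternatives. In the paclitaxel-resistant line ALKBH1 had -0.25 and was not called. The other one, ASCC3, a helicase that works with an AlkB enzyme, had 0.86 (limma, adjusted p = 0.0867) in the docetaxel-resistant and 0.87 (adjusted p = 0.082) in the paclitaxel-resistant line. Its resistant arrays all lay above the sensitive ones, but it was not called.

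Of 8 glycosylases other than MPG, 1 was called higher and 1 lower in the docetaxel-resistant line. In the paclitaxel-resistant line 1 was called higher and 2 lower. SMUG1, which removes uracil, read 47.38, 52.12 and 41.46 in docetaxel-resistant cells and 47.19, 37.68 and 50.79 in paclitaxel-resistant cells, against 78.64, 67.67 and 86.91 in sensitive cells. It fell in both lines, by 0.74 (limma, adjusted p = 0.00265) in the docetaxel-resistant and 0.72 (adjusted p = 0.00273) in the paclitaxel-resistant line. UNG, the main uracil glycosylase, fell by 0.80 in the paclitaxel-resistant line (limma, adjusted p = 0.00273) and had -0.33 in the docetaxel-resistant line, which was not called. MBD4, a glycosylase for thymine and uracil at CpG sites, rose by 0.94 (limma, adjusted p = 0.006) and 0.98 (adjusted p = 0.00448) in the docetaxel- and paclitaxel-resistant lines. Without probe sets that can share sequence with other transcripts its difference was -0.20 and -0.11, so the direction for MBD4 depends on the probe set. The other glycosylases were not called.

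After a glycosylase has acted, the bare sugar is cut and the gap filled and sealed. PARP1, which binds the strand breaks of this step, read 781.6, 883.9 and 875.1 in docetaxel-resistant cells and 650.3, 716.9 and 669.0 in paclitaxel-resistant cells, against 475.5, 371.3 and 485.1 in sensitive cells. It rose by 0.83 in the docetaxel-resistant line (limma, adjusted p = 0.00083) and by 0.58 in the paclitaxel-resistant line (adjusted p = 0.00641), with no overlap. APEX1, the endonuclease that cuts at the bare sugar, fell by 0.51 in the docetaxel-resistant line (limma, adjusted p = 0.0151), a call lost under 3 of 17 alternatives. POLB, the gap-filling polymerase, fell by 0.43 there (limma, adjusted p = 0.0346), a call lost under 11 of 18 alternatives. FEN1, the flap endonuclease, fell by 0.55 in the paclitaxel-resistant line (limma, adjusted p = 0.0272), a call lost under 7 of 17 alternatives. Between the paclitaxel- and docetaxel-resistant lines none of the 35 genes was called in limma, with 7 at an unadjusted p below 0.05, beside 1.96% called over all genes. POLB came nearest, at 0.54 (limma, adjusted p = 0.0575).

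**Figure D3:**
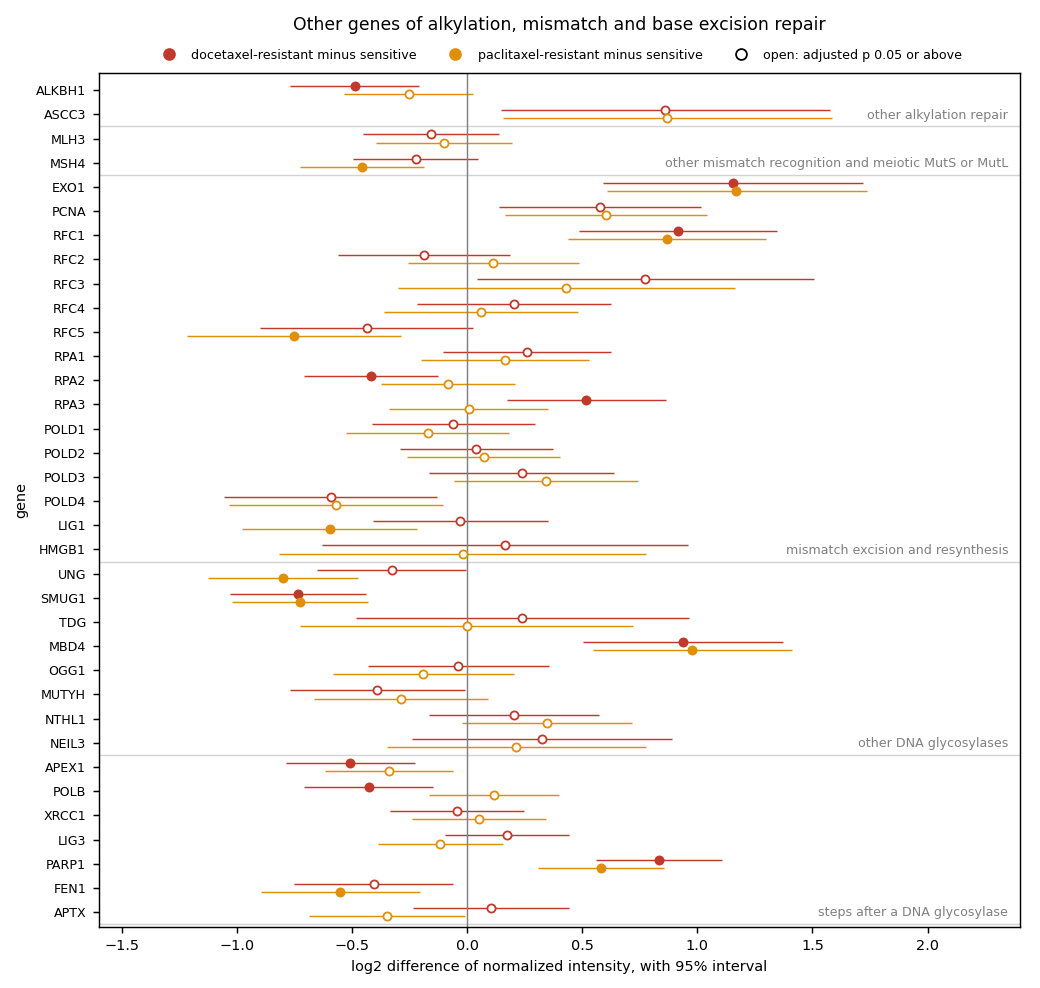
Log2 difference of normalized intensity with its 95% interval for the 35 measured genes of the 5 lists, for each resistant line minus sensitive cells. Filled points have an adjusted p below 0.05; EXO1, RFC1, MBD4 and PARP1 lie to the right and SMUG1 to the left in both comparisons, and most others are open.

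The chromosomal surroundings of the 6 genes were read from the 3 nearest measured genes on either side of each, 36 in all, which the choice of the genes did not use. In the docetaxel-resistant line 4 of these neighbours were called higher and 3 lower, beside 21.0% of all genes called. In the paclitaxel-resistant line 2 were called higher and 8 lower, beside 21.6% of all genes called. The paclitaxel count was 5 without paclitaxel-resistant replicate 2 and 6 without sensitive replicate 3. Beside MGMT on chromosome 10, the nearest measured genes were MKI67, the Ki-67 proliferation antigen, and GLRX3, a glutaredoxin. MKI67 had 0.00 in the docetaxel-resistant and -0.05 in the paclitaxel-resistant line. GLRX3 had -0.10 in the docetaxel-resistant line and fell by 0.62 in the paclitaxel-resistant line (limma, adjusted p = 0.0142). That GLRX3 call was lost with values as deposited, without paclitaxel-resistant replicate 2 and without probe sets that can share sequence, where the smallest difference was -0.08. Neither came near the -6.60 of MGMT. Farther out, BNIP3, a mitophagy receptor, fell by 1.19 in the docetaxel-resistant line (limma, adjusted p = 0.000844) and by 1.30 in the paclitaxel-resistant line (adjusted p = 0.000445). In the paclitaxel-resistant line the phosphatase PTPRE fell by 0.50 (limma, adjusted p = 0.0328) and the phosphatase subunit PPP2R2D by 0.69 (adjusted p = 0.0104). The PTPRE call was lost under 7 of 18 alternatives. DOCK1, an exchange factor for Rac, rose by 0.71 in the docetaxel-resistant line (limma, adjusted p = 0.011).

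Beside MPG on chromosome 16, RHBDF1, an inactive rhomboid protein, fell by 0.76 in the paclitaxel-resistant line (limma, adjusted p = 0.0101). NPRL3, a subunit of the GATOR complex that restrains TORC activity, had -0.10 in the docetaxel-resistant and 0.27 in the paclitaxel-resistant line. Beside MSH3 on chromosome 5, ZFYVE16, an endosomal protein, had 0.22 in the docetaxel-resistant and -0.13 in the paclitaxel-resistant line. CKMT2, a mitochondrial creatine kinase, had -0.05 in the docetaxel-resistant and -0.07 in the paclitaxel-resistant line. Neither MSH3 neighbour was called. Farther from MSH3, THBS4, a thrombospondin, rose by 0.65 (adjusted p = 0.0249) and SSBP2, a single-stranded DNA binding protein, fell by 0.56 (adjusted p = 0.0294) in the paclitaxel-resistant line by limma. The THBS4 call was lost under 3 of 17 and the SSBP2 call under 10 of 18 alternatives.

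Beside MSH6 on chromosome 2, the potassium channel KCNK12 had -0.36 in the docetaxel-resistant and 0.12 in the paclitaxel-resistant line. FBXO11, which recognizes substrates for a ubiquitin ligase, rose by 0.86 in the docetaxel-resistant line (limma, adjusted p = 0.0101) and had 0.38 in the paclitaxel-resistant line. FBXO11 read 29.72, 41.74 and 65.06 in docetaxel-resistant cells, against a low 16.34, 16.34 and 11.06 in sensitive cells. Beside PMS1, also on chromosome 2, OSGEPL1, a mitochondrial tRNA-modifying enzyme, had 0.23 in the docetaxel-resistant and 0.25 in the paclitaxel-resistant line. MSTN, the growth factor myostatin, had -0.10 in the docetaxel-resistant and -0.25 in the paclitaxel-resistant line. HIBCH, an enzyme of valine breakdown, rose by 0.75 in the docetaxel-resistant line (limma, adjusted p = 0.0427), a call lost under 10 of 16 alternatives. It read 21.92, 25.07 and 64.76 in docetaxel-resistant cells, against a low 16.04, 7.5 and 13.2 in sensitive cells. INPP1, an inositol phosphatase, fell by 0.65 in the docetaxel-resistant line (limma, adjusted p = 0.00603) and by 0.82 in the paclitaxel-resistant line (adjusted p = 0.00153).

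Beside PMS2 on chromosome 7, CCZ1, part of the exchange factor for a late endosomal Rab protein, had 0.01 in the docetaxel-resistant and -0.00 in the paclitaxel-resistant line. EIF2AK1, the kinase that slows translation when heme is short, rose by 0.71 in the docetaxel-resistant line (limma, adjusted p = 0.00476) and by 0.45 in the paclitaxel-resistant line (adjusted p = 0.0449), where the call was lost under 10 of 17 alternatives. CYTH3, an exchange factor for small G proteins, fell by 0.74 in the paclitaxel-resistant line (limma, adjusted p = 0.00686). FSCN1, the actin-bundling protein fascin, averaged 16.01 in docetaxel-resistant, 943 in paclitaxel-resistant and 751.4 in sensitive cells. FSCN1 fell by 4.65 in the docetaxel-resistant line and was the 1 neighbour called between the paclitaxel- and docetaxel-resistant lines.

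**Figure D4:**
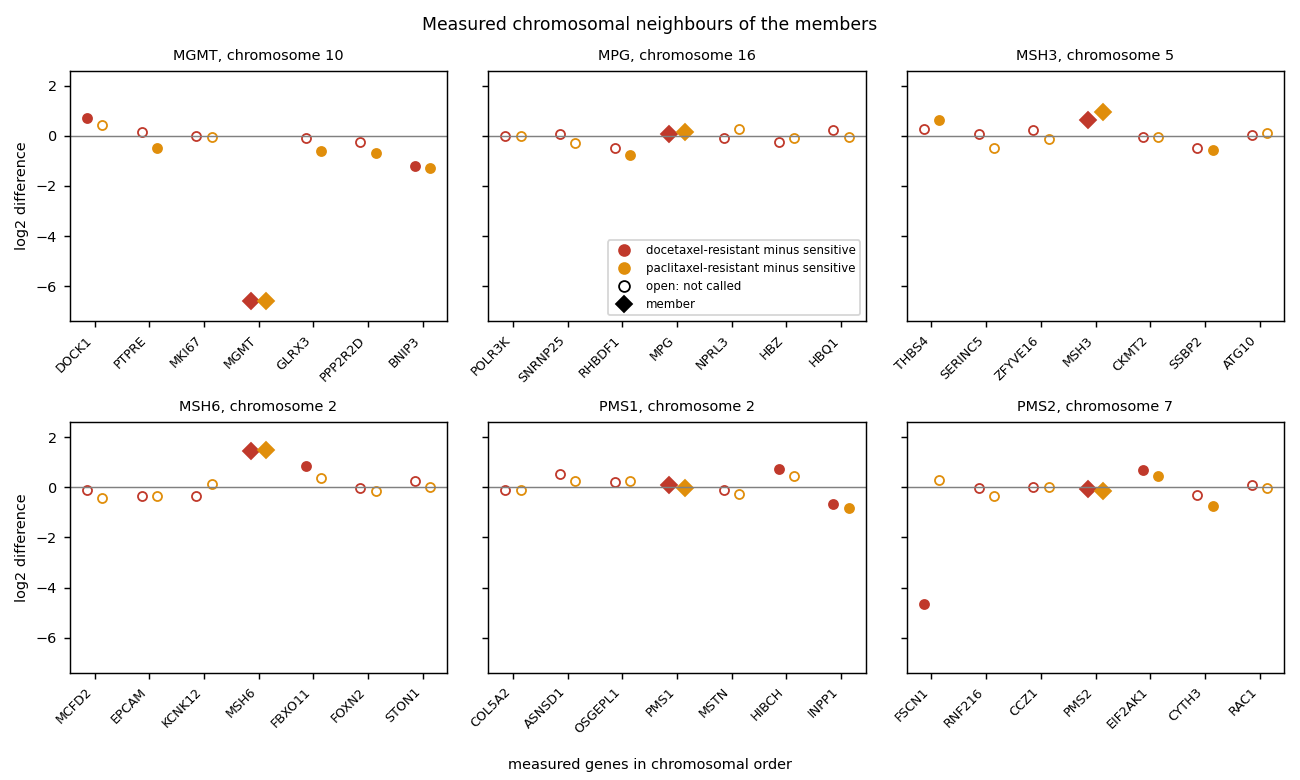
Log2 difference of normalized intensity for each of the 6 genes (diamonds) and its 3 nearest measured genes on either side in chromosomal order, for each resistant line minus sensitive cells. Open circles are neighbours that were not called; diamonds show the probe set with the highest mean, filled whatever their value, and for PMS2 221206_at; MGMT lies at -6.60 while its neighbours lie between -1.30 and 0.71.

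Genes with the pattern most like that of MGMT were sought among 1079 other genes whose group means spanned at least 1 on the log2 scale, by Pearson's correlation over the 9 arrays. The highest were ADIRF (r = 0.997), RGCC (0.997), HLA-DRA (0.997), CD74 (0.997) and CTSF (0.996). The correlation reflects the gap between the sensitive arrays and the rest, and is given with no test. ADIRF averaged 48.58 in docetaxel-resistant, 50 in paclitaxel-resistant and 5742 in sensitive cells. RGCC, a regulator of the cell cycle, averaged 17, 20.7 and 1087 in docetaxel-resistant, paclitaxel-resistant and sensitive cells. HLA-DRA, an antigen-presenting chain, averaged 1.457 in docetaxel-resistant, 1.497 in paclitaxel-resistant and 516 in sensitive cells. CD74, the invariant chain that goes with it, averaged 52.8 in docetaxel-resistant, 44.52 in paclitaxel-resistant and 11080 in sensitive cells. CTSF, a cathepsin, averaged 5.91 in docetaxel-resistant, 7.7 in paclitaxel-resistant and 224 in sensitive cells.

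For MSH3 the most alike were GGPS1 (r = 0.962), a synthase of the isoprenoid pathway, and FOXA1 (r = 0.96), a transcription factor of luminal epithelium. FOXA1 read 20.60 to 24.07 in docetaxel-resistant, 26.37 to 30.21 in paclitaxel-resistant and 3.88 to 8.99 in sensitive arrays, which is low in all groups. For MSH6 they were CFDP1 (r = 0.993), a chromatin protein, and FERMT2 (r = 0.992), the adhesion protein kindlin. FERMT2 read 181.2, 231.7 and 406.7 in docetaxel-resistant cells and 326.8, 234.8 and 175.9 in paclitaxel-resistant cells, against 123.3, 47.90 and 89.34 in sensitive cells. CFDP1 and FERMT2 followed MSH6 also within the groups, with docetaxel-resistant replicate 3 the highest and sensitive replicate 2 the lowest array for each. Over all probe sets these arrays deviated from their group means in opposite directions (correlation -0.43). The same arrays stood highest and lowest for some genes of the repair lists. Among them were PCNA (1019 and 338.9), RPA1 (982.9 and 448.4) and RFC3 (183.2 and 23.91). Others, such as PARP1 and SMUG1, had another order. The order is thus not particular to MSH6, CFDP1 and FERMT2, and its source was not tested. The probe sets with the highest mean of MPG, PMS1 and PMS2/PMS2CL (221206_at) had group means that spanned under 0.5, and no like genes were sought for them; none were sought for 209805_at.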

How the data were processed

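RNA from 9 cultures, 3 passages of each of 3 groups, was hybridized to Affymetrix HU133A arrays. The deposited values are linear probe set intensities, 1 per probe set and array, made by the authors with Affymetrix Expression Console 1.1.2 and PLIER, per the submitters' processing notes; how background and differences between arrays were handled is not given in the sources used here. The number of arrays limits the precision. Of 22283 probe sets 68 controls were left out. Values became log2(intensity + 16) and were quantile-normalized, since array medians differed by 0.27. Tests used limma 3.58.1 in R 4.3.3: 1 model with 3 group means and eBayes (6 residual and 5.83 prior degrees of freedom for probe sets), 3 contrasts, two-sided p adjusted by Benjamini-Hochberg over all features and called below 0.05. Lists and neighbours used 1 probe set per gene, that with the highest mean (11963 genes). The procedure was tested on simulated data. At most 0.234% of values were identical between any pair of arrays.

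Probe set genes came from the platform annotation, with symbols and chromosomal order from the RefSeq gene table (19051 of 19065 single-gene probe sets matched). Probe sets with names ending in _x_at or _s_at can share sequence with other transcripts. Promoters of all 6 genes were found in the RefSeq table. The 6 genes, the lists and the settings were chosen with earlier results of these data known. Named were all probe sets of the 6 genes, MLH3, EXO1, PCNA and up to 4 called genes per list and comparison, the nearest neighbours and any called one, and the 5 (MGMT) or 2 most alike genes; markers, ASCC3 and pseudogenes were named after their values were seen. Same-numbered replicates did not deviate together (correlations -0.40 to 0.295), so replicate numbers were not used as pairs. Alternatives were other offsets, normalizations, filters and gene summaries, a trend fit, the replicate block and the omission of each array.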

Additional observations from a re-analysis of the deposited data

Results flagged for a closer look

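FSCN1, a neighbour of PMS2 and the gene of the actin-bundling protein fascin, differed between the resistant lines under the same contrast with sensitive cells. It read 10.07, 21.41 and 16.56 in docetaxel-resistant cells, 848.2, 1070 and 911.0 in paclitaxel-resistant cells and 843.4, 608.1 and 802.9 in sensitive cells. The docetaxel-resistant arrays lay far below all others. The paclitaxel-resistant minus docetaxel-resistant difference was 4.95 on the log2 scale (limma, adjusted p = 3.84e-08). The difference from sensitive cells was -4.65 in the docetaxel-resistant and 0.30 in the paclitaxel-resistant line. The PMS2/PMS2CL probe sets between the lines gave 0.12 and -0.08.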

How the results depend on the processing

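Under the alternatives the MGMT difference ran from -7.69 to -5.19 in the docetaxel-resistant and from -7.68 to -5.18 in the paclitaxel-resistant line. That of MSH6 202911_at ran from 1.06 to 1.64 in the docetaxel-resistant and from 1.09 to 1.68 in the paclitaxel-resistant line. The count of probe sets called in the docetaxel comparison (3922) ran from 2447 to 3970 when 1 array was left out. Among genes of the repair lists, the docetaxel count (10) was 5 with values as deposited and 5 without those whose names end in _x_at or _s_at, and ran from 5 to 11 with 1 array left out. The paclitaxel count (10) was 5 without those probe sets and ran from 6 to 11 with 1 array left out. Among neighbours, the docetaxel count (7) was 4 without those probe sets, and the paclitaxel count (10) was 5, and ran from 5 to 11 with 1 array left out. Genes with only such probe sets, SMUG1 and FSCN1 among them, were absent from that setting. The list and neighbour counts therefore fell there in part without a call being lost. Leaving out those probe sets also turned MBD4 to -0.20 in the docetaxel and -0.11 in the paclitaxel comparison and RFC1 to -0.13 in the docetaxel comparison. Between the paclitaxel- and docetaxel-resistant lines 356 probe sets were called, but 84 with an offset of 1, 215 with values as deposited and 111 to 421 with 1 array left out. There 1 list gene, POLB, was called with an offset of 64, with only features at or above the median level, and with the mean of a gene's probe sets. Of neighbours there, 2 were called with an offset of 64, as deposited and with median centring. The count was also 2 with only features at or above the median level and with the mean of a gene's probe sets. It was 1 to 2 with 1 array left out. Without the suffixed probe sets it was 0, but FSCN1 was absent from that setting. FSCN1 kept its call under all 17 alternatives that included it. The causes were not tested. Replicate numbers do not pair the samples; with the replicate block 214 probe sets were called between the lines, against 356 without. Each resistance is 1 line, and low intensities such as those of MGMT in resistant cells, of MSH4 and of MSH6 211449_at limit how far a fold can be read.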

Other observations

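Sequences related to PMS2 occur in many pseudogene copies, and 16 further probe sets are annotated to PMS2 pseudogenes but not to PMS2 itself. Of these, 12 have names ending in _x_at, so they can share sequence and are not independent of each other. They were looked up after the PMS2 values were seen. In the docetaxel-resistant line 1 was called higher and 0 lower in limma, with 3 at an unadjusted p below 0.05. In the paclitaxel-resistant line 9 were called higher and 0 lower, with 11 at an unadjusted p below 0.05. Over all probe sets 9.34% were called higher in the docetaxel-resistant and 9.21% in the paclitaxel-resistant line. The median difference was 0.17 in the docetaxel-resistant line (lowest -0.24, highest 0.44) and 0.42 in the paclitaxel-resistant line (lowest -0.32, highest 0.79). Under the alternatives, which were added after seeing the data, the paclitaxel count ran from 3 to 10 and was 3 without sensitive replicate 2, sensitive replicate 3 or paclitaxel-resistant replicate 3, and the docetaxel count was 0 or 1. Between the paclitaxel- and docetaxel-resistant lines 0 of the 16 were called in limma, with 5 at an unadjusted p below 0.05.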
